A study of Canis lupus familiaris with 6 samples.

Results

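Ras-ERK feedback and output genes were read in MDCK cells, a canine kidney epithelial line, that expressed active Ras. The list of 10 genes held the Sprouty genes SPRY1, SPRY2 and SPRY4, the Sprouty-related genes SPRED1 and SPRED2, the MAP kinase phosphatases DUSP4, DUSP5 and DUSP6, and the ETS transcription factors ETV4 and ETV5. Every non-control probe whose gene name on the array equals one of these symbols was taken, whatever its values, which gave 11 probes of 43603 on the array, for 7 of the 10 genes. SPRY1, SPRY2, SPRY4, DUSP5 and ETV5 had 1 probe each, SPRED1 had 2 and DUSP6 had 4. No probe bore the name SPRED2, DUSP4 or ETV4, so these 3 genes have no value by name. The list was chosen by gene name when the mix against single culture differences in signal on these same arrays were already known, so the differences between cultures given here are a description of the chosen genes and not a test of them.

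All 6 samples were MDCK cells carrying pTR GFP-RasV12 together with mCherry-β-catenin Δ131, called β-cat ΔN/RasV12 cells here. They carry a stabilised β-catenin that lacks its N-terminus, as well as GFP-tagged RasV12, an active Ras oncoprotein, under tetracycline control. In the single culture (3 arrays) these cells grew alone. In the mix culture (3 arrays) they grew with 10 times as many MDCK mCherry-β-catenin Δ131 cells (β-cat ΔN cells), which carry the β-catenin mutant without RasV12. Both cultures received tetracycline for 24 h, and GFP-positive cells were then sorted by flow cytometry for total RNA. The single culture is therefore no control without Ras or with normal β-catenin, and the array cannot show how these genes stand in cells lacking either change. The comparison asks how the surroundings of a Ras-transformed, Wnt-activated cell go with the readout of the Ras-ERK pathway in that cell.

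In the Ras-ERK pathway, active Ras starts a chain of kinases, RAF, MEK and ERK, and ERK enters the nucleus and switches on genes. Among those genes are inhibitors of the pathway itself. Sprouty and SPRED proteins act upstream, at the level of growth factor receptors, Ras and RAF, while DUSP5 and DUSP6 remove the activating phosphates from ERK. ETV4 and ETV5 are transcription factors whose expression commonly follows ERK activity. In the developing kidney, SPRY1 is known as a feedback inhibitor of RET signalling in the branching ureteric epithelium, and ETV4 and ETV5 as its targets.

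The probes are DNA oligonucleotides of 60 bases, and those of 4 genes are printed because close family members gave unlike results: SPRY4 against SPRY1 and SPRY2, and DUSP6 as the gene with the most probes. In the SPRY1 and SPRY2 sequences, capitals mark the bases that match when the end of the SPRY1 probe is laid without gaps over the start of the SPRY2 probe. Of 28 bases in that overlap 21 matched (75%), and the rest of each probe lies on a different stretch of its gene. The other sequences are in lower case throughout.
SPRY1: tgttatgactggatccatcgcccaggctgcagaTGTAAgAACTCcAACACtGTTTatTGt
SPRY2: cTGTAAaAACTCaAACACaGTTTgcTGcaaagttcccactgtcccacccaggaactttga
SPRY4: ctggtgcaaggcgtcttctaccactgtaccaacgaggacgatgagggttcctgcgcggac
DUSP6, the probe nearest the 5′ end of the gene: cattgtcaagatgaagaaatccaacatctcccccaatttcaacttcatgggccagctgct

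Per the probe annotation on the array (build CanFam3.1), the SPRY1 probe lies at chr19:16971120-16971179, the SPRY2 probe at chr22:33366944-33367003 and the SPRY4 probe at chr2:37203846-37203905, all on the minus strand. The 4 DUSP6 probes lie on the minus strand of chr15 between 30322521 and 30323898, and the one shown covers chr15:30323839-30323898. The DUSP5 probe lies at chr28:21834801-21834860 on the plus strand, the ETV5 probe at chr34:18731208-18731267 on the minus strand, and the SPRED1 probes at chr30:5710696-5710755 and chr30:5714671-5714730 on the plus strand. Exon and UTR annotation of these positions was not used here.

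Signals are given as normalised log2 signal, the log2 of the background-subtracted spot signal minus the 75th percentile of the array, so that 0 is a signal brighter than 75% of the probes. All 11 probes were well above background on all 6 arrays, and no spot was saturated. The array of replicate 1 of each culture lay on slide 1 and the other 4 arrays on slide 2, so each slide held both cultures. Of 8 kidney epithelial markers, 7 had a probe, and all 7 (CDH1, EPCAM, KRT18, CLDN4, OCLN, CDH16 and PAX8) were above background on every array. Their summed signals were 68900 to 101000 units in the single culture and 57200 to 72500 in the mix culture. KRT18 alone gave 52500 to 73500 and 42300 to 55700 units of these. The fitted differences of the 7 ran from -0.87 (CLDN4) to 0.47 (PAX8), with limma adjusted p of 0.384 or more. Of the markers of other cells, 3 of 6 for fibroblasts, 4 of 6 for white blood cells and 3 of 5 for endothelium were above background on every array, while COL3A1, DCN, PTPRC and TEK were above it on none. Their summed signals overlapped between the cultures, with 250 to 512 and 222 to 467 units for fibroblasts, 242 to 348 and 241 to 343 for white blood cells, and 918 to 2890 and 844 to 3350 for endothelium (single and mix culture). The list held no marker that tells β-cat ΔN cells from β-cat ΔN/RasV12 cells, so carry-over of surrounding cells through the sort was not tested. Fewer cells of a kind and less RNA per cell cannot be told apart in these bulk samples.

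Among the Sprouty genes, SPRY4 was the one whose signal was lower on every mix culture array. Sprouty-4 is an inhibitor induced by the growth factor signals that it dampens. Its normalised log2 signal was -2.60, -2.31 and -2.24 in the single culture (replicates 1, 2 and 3) and -3.83, -3.99 and -3.41 in the mix culture. The cultures did not overlap, and the gap between them exceeded the spread within either. The means were -2.38 ± 0.19 and -3.74 ± 0.30 (SD, n = 3), a difference of -1.36 (SE 0.21, 95% interval -1.85 to -0.87), or 2.57-fold lower. The difference was of like size on both slides, with -1.23 on slide 1 and -1.43 on slide 2. The probe is dim: its signals ran from 33.7 to 36.6 units in the single culture and from 11.4 to 16.3 in the mix culture, against 4.19 to 4.48 for the dimmest probes well above background.

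SPRY2, the Sprouty gene with the brightest probe, had normalised log2 signals of 2.0, 0.80 and 0.59 in the single culture and 1.37, 0.35 and 0.80 in the mix culture. The replicate 1 arrays, both on slide 1, were the highest of their cultures, and the cultures overlapped. The means were 1.13 ± 0.76 and 0.84 ± 0.51 (SD, n = 3), with a difference of -0.29 (SE 0.42, 95% interval -1.28 to 0.70). Within slides the difference was -0.63 and -0.12. Without replicate 1 of the single culture it was 0.15. In that fit slide 1 is present in the mix culture alone, so the value mixes the slide difference with that of the cultures.

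SPRY1 had a probe as dim as that of SPRY4 in the mix culture, at 11.5 to 17.2 units over the 6 arrays. Its normalised log2 signals were -4.16, -3.74 and -3.32 in the single culture and -3.86, -3.55 and -3.66 in the mix culture. The mix culture arrays lay inside the range of the single culture arrays. The difference was 0.05 (SE 0.24, 95% interval -0.50 to 0.61), and was of opposite sign on the slides, at 0.29 and -0.07. Although the SPRY1 and SPRY2 probes share bases, SPRY2 read 231 to 822 units where SPRY1 read at most 17.2. These are signals of different probes, which cannot be ranked as transcript levels.

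SPRED1, a membrane-bound inhibitor of Ras activation that works with the Ras GTPase-activating protein NF1, was read by 2 probes that lie on different stretches of the gene. The first (A_11_P0000031078) had normalised log2 signals of -1.33, -0.86 and -1.0 in the single culture and -1.4, -1.07 and -0.89 in the mix culture. The second (A_11_P118536) had -2.44, -3.05 and -3.14, against -2.84, -3.0 and -3.01. The cultures overlapped on both probes. The differences were -0.06 (SE 0.21, 95% interval -0.55 to 0.43) and -0.07 (SE 0.22, 95% interval -0.58 to 0.44), and each interval reaches to both sides of 0.

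DUSP6, the cytoplasmic phosphatase that is selective for ERK, was read by 4 probes along 1 annotated transcript, and all 4 were lower in the mix culture on both slides. The probe nearest the 5′ end (A_11_P085986) had normalised log2 signals of 2.59, 3.06 and 2.67 in the single culture and 2.29, 2.32 and 2.23 in the mix culture. The cultures did not overlap on this probe, and the mix culture arrays lay close together. Its difference was -0.49 (SE 0.18, 95% interval -0.91 to -0.08), 1.41-fold lower. The probe 534 bases further downstream (A_11_P0000014896) had 6.36, 5.79 and 5.49 in the single culture and 5.86, 4.90 and 5.08 in the mix culture. Here replicate 1 of the mix culture, on slide 1, stood above the slide 2 arrays of the single culture, so the cultures overlapped over both slides but not within slide 2. The difference was -0.60 (SE 0.32, 95% interval -1.36 to 0.17), 1.51-fold lower.

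The cultures overlapped on the other DUSP6 probes too, but not within slide 2. The probe 959 bases downstream of the first (A_11_P205298) had 3.64, 3.22 and 2.98 against 3.20, 2.53 and 2.66, and the one 1318 bases downstream (A_11_P120536) had 6.56, 6.08 and 5.98 against 6.11, 5.38 and 5.67. Both differed by 1.40-fold, at -0.49 (SE 0.25) and -0.48 (SE 0.25). The within-slide differences of the 4 probes ran from -0.50 to -0.30 on slide 1 and from -0.65 to -0.50 on slide 2. The probes read the same RNA samples and are not replicates of the culture. They differed widely in brightness, with 756 to 1390 units for the first and 7550 to 19400 for the last, while their differences between cultures ran from -0.60 to -0.48 on the log2 scale.

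DUSP5, a phosphatase that acts on ERK in the nucleus, had normalised log2 signals of -0.30, -0.53 and -0.42 in the single culture and -0.39, -0.32 and -0.29 in the mix culture. The cultures overlapped, and the difference of 0.08 (SE 0.15, 95% interval -0.26 to 0.43) lay within the spread of the single culture arrays. Its fitted difference had the opposite sign to those of the 4 DUSP6 probes, and the intervals overlapped. DUSP4, another nuclear phosphatase, had no probe by name, but 2 probes of a gene named LOC482880 are described on the array as dual specificity phosphatase 4. The probe at chr16:34812604-34812663 read -2.63, -2.62 and -2.60 in the single culture and -2.51, -2.94 and -2.33 in the mix culture, which lay on both sides of the single culture. Its difference was 0.02 (SE 0.19, 95% interval -0.43 to 0.47). The other was above background on 1 array and was not tested.

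ETV5, the ETS factor with a probe, had normalised log2 signals of 3.63, 2.48 and 2.48 in the single culture and 2.31, 1.76 and 1.94 in the mix culture. Every mix culture array was below every single culture array, with replicate 1 of the mix culture the closest to them. The means were 2.86 ± 0.66 and 2.0 ± 0.28 (SD, n = 3), and the difference was -0.86 (SE 0.34, 95% interval -1.66 to -0.06), 1.81-fold lower. With the slide in the fit its SE was 0.15 and its 95% interval -1.21 to -0.50. The difference was -1.31 on slide 1 and -0.63 on slide 2, and without replicate 1 of the single culture it was -0.48. As for SPRY2, that last fit has slide 1 in the mix culture alone, so its value mixes the slide difference with that of the cultures.

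**Figure D1:**
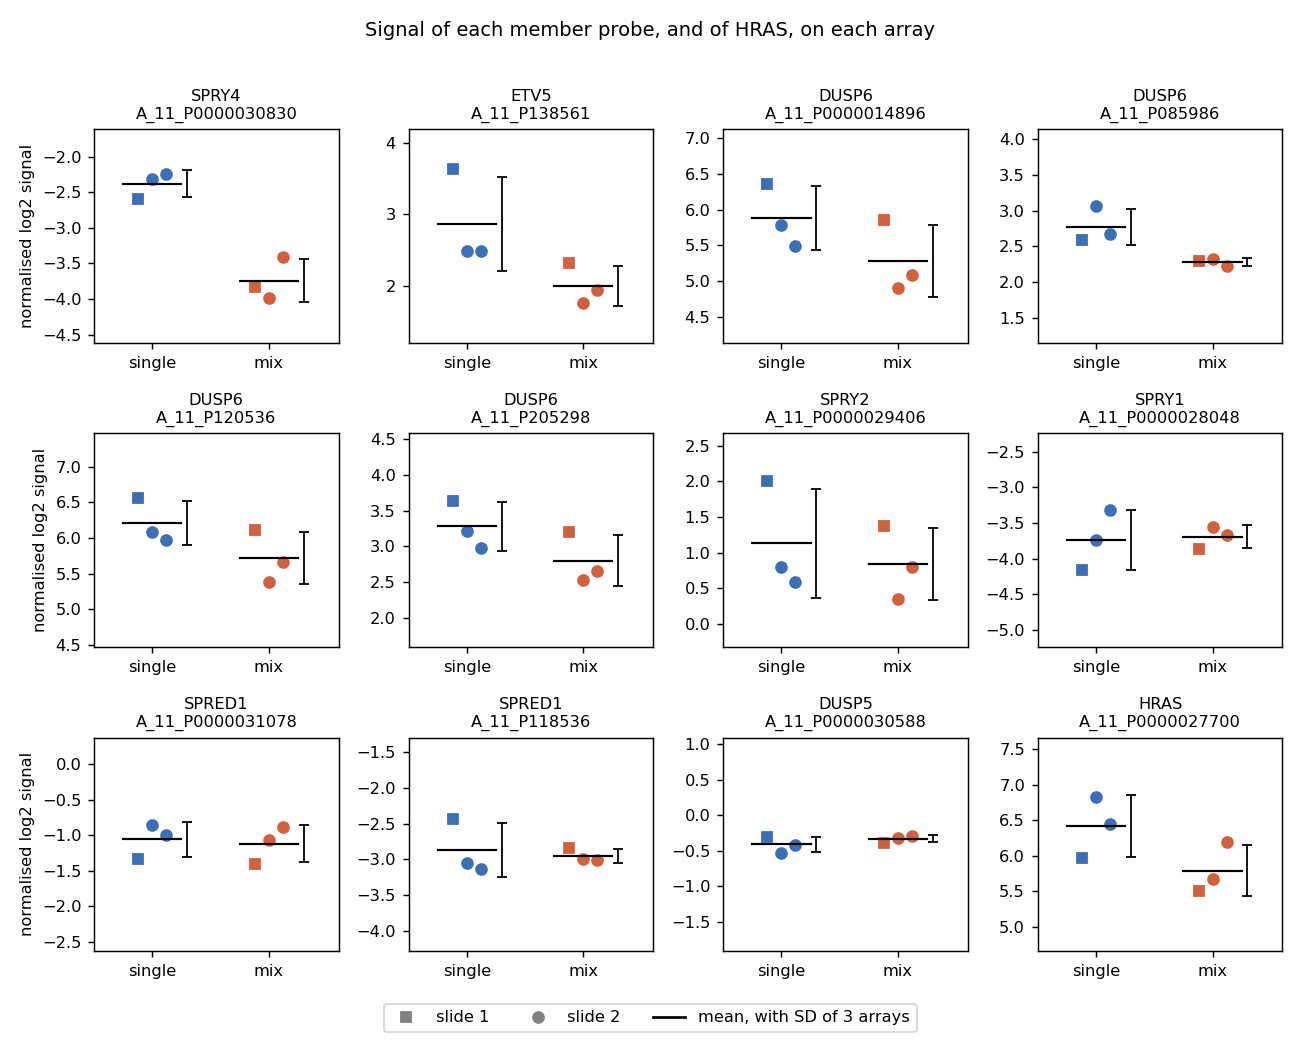
Normalised log2 signal (y axis) of each of the 11 probes, and of HRAS, on each array of the single and mix culture (x axis). Squares are slide 1 arrays, circles slide 2 arrays, and black lines the mean with the SD of 3 arrays. SPRY4, ETV5 and the DUSP6 probe A_11_P085986 lie lower on every mix culture array. For SPRY2, ETV5, the SPRED1 probe A_11_P118536 and the 3 DUSP6 probes nearest the 3′ end the slide 1 array is the highest of each culture.

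The fit over all 26621 probes that passed the background filter (limma, Benjamini-Hochberg adjusted p under 0.05) called 1 of the 11 probes, SPRY4, as lower in the mix culture. Of all probes tested, 0.883% were called, and 0.0676% were called lower. With the slide as a block, 5 of the 11 were called, all lower: SPRY4, ETV5 and 3 DUSP6 probes. The same fit called 7.2% of all probes, with 3.22% lower. With the replicate number as a block, SPRY4 and ETV5 were called, beside 5.26% of all probes (2.02% lower), and on slide 2 alone they were called again, beside 3.69% (1.28% lower). Since this contrast was known when the genes were chosen, nothing is read from these counts.

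On 3 of the 11 probes (SPRY4, ETV5 and the DUSP6 probe nearest the 5′ end) every mix culture array was below every single culture array, which held for 8.66% of all probes, and on none was the order the other way. The cultures did not overlap in either direction for 16.5% of all probes. On 8 of the 11 probes the mix culture was lower on both slides, as it was for 42.3% of all probes. On 6 (SPRY4, ETV5 and DUSP6) it was also below every single culture array within slide 2, against 24.2%. The median difference of the 11 probes was -0.48, and that of all probes was -0.05. DUSP6 gives 4 of the 11 values, so the median is largely that of DUSP6.

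**Figure D2:**
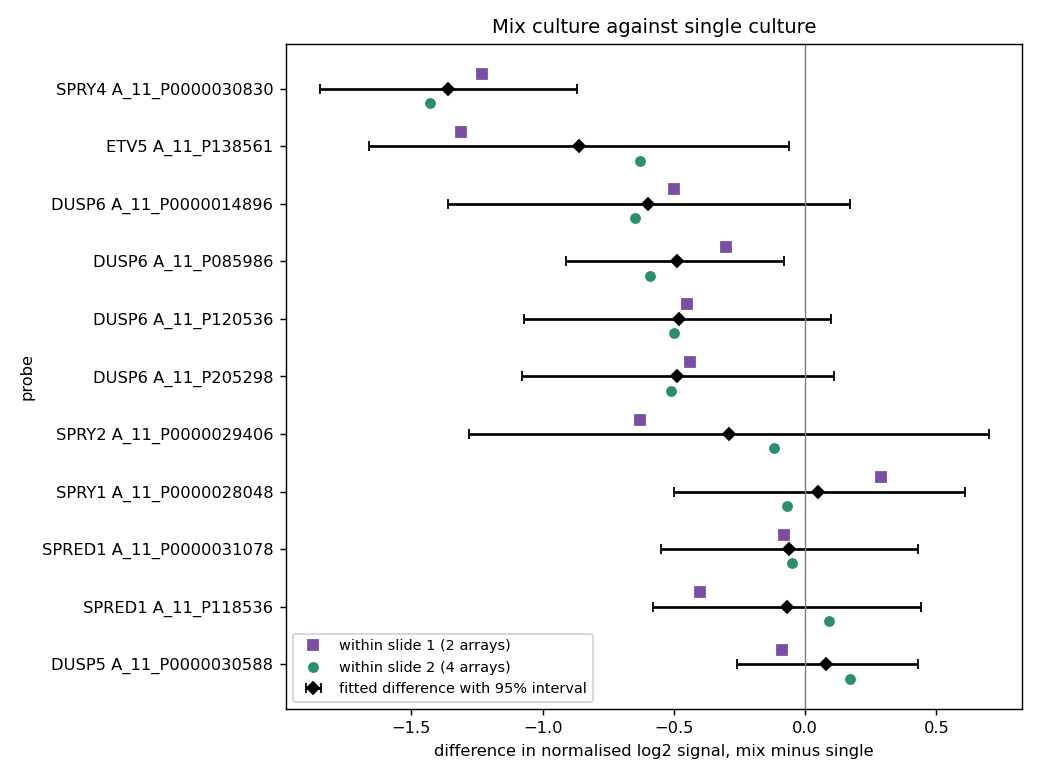
Difference in normalised log2 signal between mix and single culture (x axis, mix minus single) for each of the 11 probes (y axis). Diamonds are the fitted difference with its 95% interval, squares the difference within slide 1 and circles that within slide 2. SPRY4, ETV5, DUSP6, SPRY2 and the SPRED1 probe A_11_P0000031078 lie below 0 on both slides, as did 42.3% of all probes. The fitted differences of SPRY1, SPRED1 and DUSP5 lie between -0.07 and 0.08.

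The slides themselves can be compared without regard to the way the genes were chosen, since each slide held both cultures. In the fit with culture and slide (limma), 8 of the 11 probes differed between slides, beside 47.2% of all probes. Of the 8, 6 were lower on slide 2 (25.0% of all probes) and 2 were higher (22.2%). SPRY2 was lower on slide 2 by -1.05 (95% interval -1.45 to -0.65, adjusted p = 0.00221), ETV5 by -0.81 (95% interval -1.18 to -0.43, adjusted p = 0.00517) and the DUSP6 probe 534 bases downstream of the first by -0.80 (95% interval -1.10 to -0.50, adjusted p = 0.00216). For SPRY2 and this DUSP6 probe the fitted difference between slides was larger than that between cultures (-0.29 and -0.60), and for ETV5 it was slightly smaller (-0.86).

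The 2 DUSP6 probes further downstream were also lower on slide 2, by -0.58 (adjusted p = 0.00575) and -0.55 (adjusted p = 0.00766) in the same limma fit, whereas the probe nearest the 5′ end differed by 0.13 (95% interval -0.20 to 0.46, adjusted p = 0.489). The SPRED1 probes moved in opposite directions between the slides, with 0.41 (adjusted p = 0.0196) for the first and -0.41 (adjusted p = 0.0384) for the second. SPRY1 was higher on slide 2 by 0.44 (adjusted p = 0.0449). SPRY4 (0.23, adjusted p = 0.283) and DUSP5 (-0.05, adjusted p = 0.768) did not pass. The slides also differ in replicate number and in the version of the software that gave the spot signals (Agilent Feature Extraction), and these cannot be told apart.

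**Figure D3:**
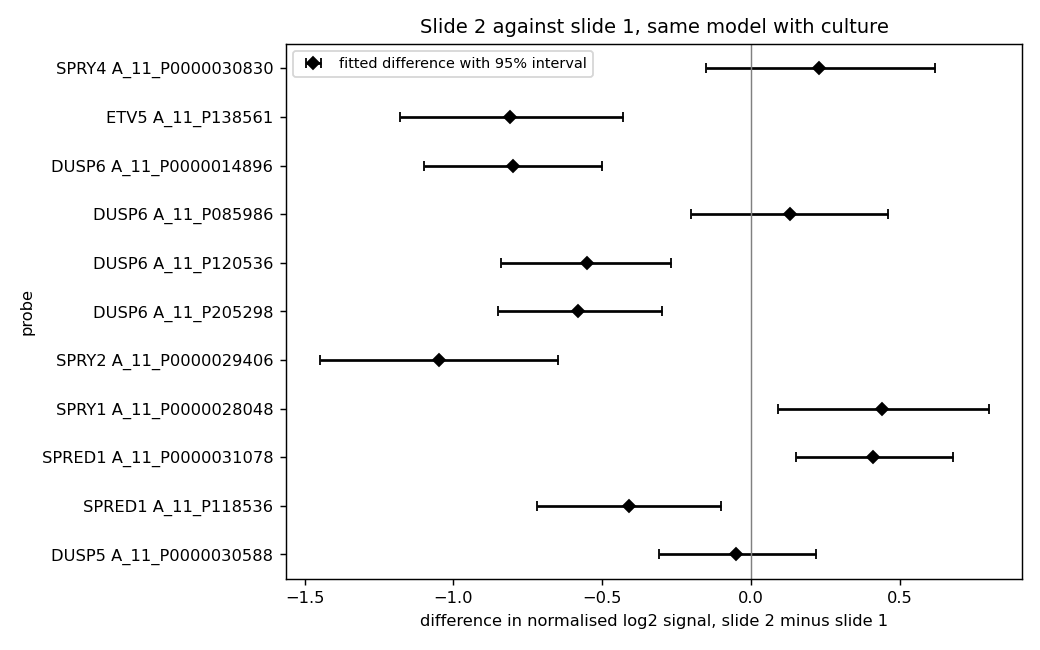
Difference in normalised log2 signal between slide 2 and slide 1 (x axis, slide 2 minus slide 1, culture in the fit) for each of the 11 probes (y axis), with 95% intervals. The 6 probes called lower on slide 2, of SPRY2, ETV5, SPRED1 and DUSP6, lie below 0, the DUSP6 probe nearest the 5′ end does not, and the SPRED1 probes lie on opposite sides.

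The difference between cultures can also be set side by side on the slides by an interaction term, which is built from the same within-slide differences and is given as a description. It was called for 0 of the 11 probes by limma, beside 0.0376% of all probes, and 1 of the 11 had an unadjusted p under 0.05. That probe was ETV5, with an interaction of 0.68 (95% interval 0.16 to 1.20). The fit leaves 2 residual degrees of freedom, and nothing is read from these values.

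HRAS, the Ras gene whose name the array carries, was read as well, since the cells express introduced Ras. Its probe had normalised log2 signals of 5.97, 6.82 and 6.45 in the single culture and 5.50, 5.68 and 6.20 in the mix culture. The cultures overlapped, with the lowest values in the mix culture. The difference was -0.62 (SE 0.28, 95% interval -1.28 to 0.03), with -0.47 on slide 1 and -0.70 on slide 2, and it was not called in the fit without a block (limma adjusted p = 0.608) or with the slide as a block (adjusted p = 0.065). Whether the probe reads the introduced RasV12, and what part the HRAS signal has in the values of SPRY4, DUSP6 and ETV5, was not tested.

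A list of 39 genes of the cascade itself (receptors, adaptors, Ras, RAF, MEK, ERK and the kinases and ETS factors next to ERK) gave 36 genes with a tested probe, 1 probe per gene. Without a block, limma called 0 of the 36, beside 0.883% of all probes, and 1 had an unadjusted p under 0.05; the methods' t-test called 0. Their differences ran from -0.62 to 0.35 with a median of -0.05, the same as that of all probes. MAPK3, which encodes the kinase ERK1, read -0.14 (SE 0.24). With the slide as a block 1 of the 36 was called, lower, beside 7.2% of all probes (3.22% lower). It was ELK3, an ETS factor that ERK phosphorylates, at -0.45 (limma adjusted p = 0.0328). Its other probes, at -0.36 (adjusted p = 0.0682) and -0.13 (adjusted p = 0.482), were not called.

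A second list held 39 other feedback and output genes of ERK, of which 27 had a tested probe. Of these 27, 2 were called without a block, 1 lower and 1 higher, where 0.0676% and 0.815% of all probes were. PLAU, the urokinase plasminogen activator, a secreted protease, read 0.21, 0.08 and 0.37 in the single culture and -1.01, -2.03 and -1.60 in the mix culture, without overlap. It was lower by 1.77 on the log2 scale (log2 difference -1.77, SE 0.27, limma adjusted p = 0.0357), and its second probe gave -1.72 (adjusted p = 0.00825). The call on the first probe was lost in 5 of the 6 fits that left out an array (limma adjusted p from 0.0856 to 0.198, and 0.0116 without mix culture replicate 1), without the background filter (0.0537) and by the methods' t-test (0.249). DUSP10, a phosphatase that acts mainly on the stress kinases p38 and JNK, was higher in the mix culture. Its brightest probe did not stand well above background in the single culture (0 of 3 arrays). The fitted difference of this probe was 1.88 (SE 0.2, interval 1.41 to 2.35, limma adjusted p = 0.00857), or 3.69-fold. That fold is a point estimate against signals not well above background, and no lower bound. This probe entered the test through the mix culture arrays alone, where it is high, so its call is no support for the list. The count of the list was 1 when all 6 arrays had to be above background. Another DUSP10 probe, above background on 1 of 3 single culture arrays, gave 1.99 (limma adjusted p = 0.011). It too entered the test through the mix culture arrays alone, so its call is no support either. The last DUSP10 probe, above background on 0 of 3 single culture arrays, gave 1.66 and was not called (adjusted p = 0.0933). Its value is likewise a point estimate against signals not well above background.

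With the slide as a block, 8 of the 27 were called, 5 lower and 3 higher, beside 7.2% of all probes (3.22% lower and 3.98% higher). The 3 higher include DUSP10, whose probe entered the test through the mix culture arrays alone. EREG, the epidermal growth factor ligand epiregulin, read 1.57, 0.77 and 0.86 in the single culture and -0.03, -0.11 and 0.18 in the mix culture, a difference of -1.05 (limma adjusted p = 0.013). DUSP1, a phosphatase of the stress kinases and ERK, read -1.13, 0.33 and -0.26 against 0.12, 0.96 and 0.95, a difference of 1.03 (adjusted p = 0.0102). The other 4 are named after their values were seen: DUSP7, an ERK phosphatase related to DUSP6, at 1.01 (adjusted p = 0.00536), ERRFI1, an inhibitor of the EGF receptor, at -0.88 (adjusted p = 0.00392), CCND1, which encodes cyclin D1, at -0.73 (adjusted p = 0.0161), and FOSL1, an AP-1 subunit, at -0.55 (adjusted p = 0.0231). The brightest of the 3 DUSP7 probes, the one read here, was higher on every mix culture array, while the DUSP6 probes were lower on both slides. This DUSP7 probe was not called without a block (limma adjusted p = 0.0996), and the other DUSP7 probes are not reported here. The early genes EGR1 (0.22, SE 0.22) and FOS (0.40, SE 0.32) were not called under either fit. The median of the 27 was -0.03, with a range from -1.77 to 1.88.

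**Figure D4:**
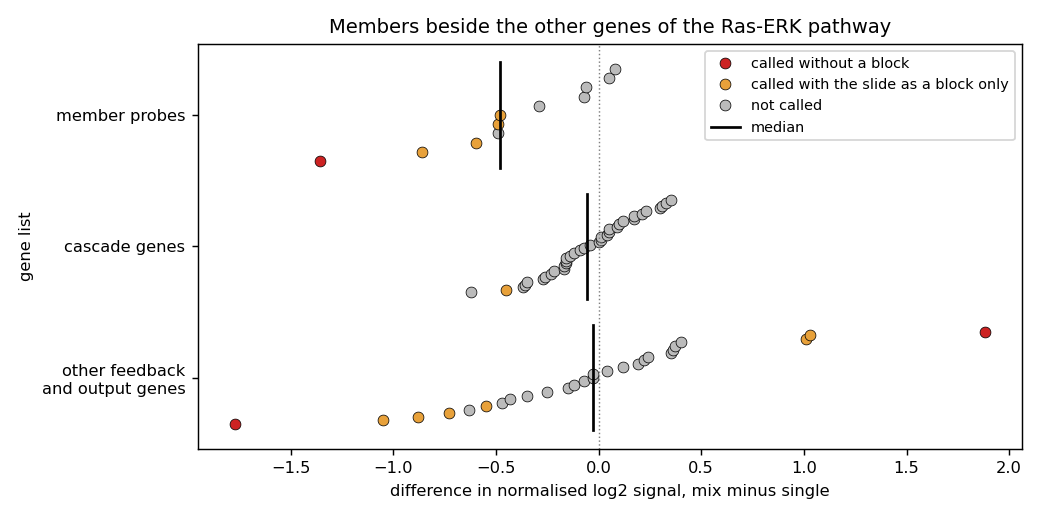
Difference in normalised log2 signal between mix and single culture (x axis, mix minus single) for the 11 probes, the 36 cascade genes and the 27 other feedback and output genes (rows), with each point a probe and the black line the median. Colour shows whether a probe was called without a block, with the slide as a block only, or not; the 11 probes were chosen with this contrast known, and the medians of the other lists, -0.05 and -0.03, lie at that of all probes.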

How the data were processed

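Canine gene expression arrays (Agilent, Cy3, 1 colour) were read for 3 single and 3 mix cultures, grouped by sample title. The authors deposited each array's spot intensity on a linear scale, background-subtracted by Agilent Feature Extraction (11.5.1.1 for slide 1 and 12.1.1.1 for slide 2, per the file headers). A second deposited table holds log2 values and served as an alternative; its steps are not given in the sources used here. In it, the median over the arrays of a slide was 0 (within 0.02) for 100% of probes on each slide, and every column's median was 0. Its column for mix culture replicate 2 follows the scanner file of replicate 3 (r = 0.999 across probes) better than its own (0.457), and the column for replicate 3 follows that of replicate 2 (0.993 against 0.459).

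Controls and flagged spots (5 to 9 per array) were dropped. Intensities were turned to log2, averaged per probe and scaled by subtracting the 75th percentile of the array (161.03 to 232.67 units). Well above background were 61.11% to 65.66% of spots, and a probe had to be so on all arrays of a culture to be tested. The comparison used limma 3.58.1 under R 4.3.3 (two-sided, Benjamini-Hochberg over all probes tested, adjusted p under 0.05), without a block; the fit was checked on simulated data. Intervals are 95% and unadjusted. The number of arrays limits precision. Alternatives were the slide or replicate as a block, quantile and normexp (offset 50) normalisation, other background filters, the authors' table, the methods' t-test (unpaired, two-tailed) and leaving out each array.

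Same-numbered arrays deviated together from their culture means (correlations across probes of 0.801, 0.53 and 0.572). Differently numbered arrays on slide 2 correlated no less (0.61 and 0.632), and arrays that share a slide can deviate together whatever their number. The check therefore cannot tell whether the numbers pair the samples. The labels do not say whether replicates were separate cultures, so p-values measure the spread between these samples, which may be technical. Described were all probes with a listed gene name, HRAS, the genes of the other lists called without a block, and up to 4 per list with the largest difference among those called with the slide block. A list gene was represented by its brightest tested probe. The genes and lists were chosen with earlier results of these data known. Values of some single cascade genes are not reported here.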

Additional observations from a re-analysis of the deposited data

How the results depend on the processing

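Over all probes tested, 235 were called without a block (217 higher), 1917 with the slide as a block (1060 higher), 1399 with the replicate block, 101 after normexp, 143 when all 6 arrays had to be above background, 1826 in the authors' table with the slide (1045 higher), 8 by the methods' t-test (2590 at an unadjusted p under 0.05), and 92 to 247 when 1 array was left out (92 without single culture replicate 3, 92 without mix culture replicate 2, 99 without mix culture replicate 3). After the data were seen, slide 2 alone (983) and a replicate block with mix culture replicates 2 and 3 exchanged (1447) were added. Of the 11 Ras-ERK probes, 1 was called without a block, 5 with the slide, 2 with the replicate block, 0 after normexp (2 at an unadjusted p under 0.05), 0 without a filter (3), 2 in the authors' table, 0 by the t-test (2), 2 on slide 2 alone, 3 with the exchanged block and 0 to 1 when 1 array was left out. SPRY4 was called in 1 of the 6 fits that left out an array, the one without single culture replicate 1 (limma adjusted p = 0.045); the adjusted p was 0.155 and 0.208 when single culture replicate 2 or 3 was left out, and 0.0859, 0.176 and 0.0625 for mix culture replicates 1, 2 and 3, with differences from -1.53 to -1.24. After normexp, whose offset exceeds the SPRY4 signal on every array, it read -0.48 (adjusted p = 0.421), and by the t-test on the same values its adjusted p was 0.218. The median of the 11 probes ran from -0.56 to -0.31 when 1 array was left out.

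Of the cascade genes, 0 were called without a block, 1 with the slide, 1 in the authors' table and 0 whichever array was left out. Of the other feedback and output genes, 2 were called without a block, 8 with the slide, 8 with the replicate block, 8 in the authors' table, 1 after normexp, 1 with all 6 arrays above background, 1 without a filter, 0 by the t-test (6 at an unadjusted p under 0.05) and 0 to 2 when 1 array was left out. Among the fits that left out an array, DUSP10 lost its call without single culture replicate 3 (limma adjusted p = 0.054) or mix culture replicate 2 (0.0604). In those fits PLAU kept its call only without mix culture replicate 1 (0.0116). After normexp DUSP10 read 0.25 (limma adjusted p = 0.91). The offset exceeds the DUSP10 signal in units on every array, but that signal is again another measure, and the part of the offset was not tested. By the t-test its adjusted p was 0.133. Signs turned only where no call was made: SPRY1 (0.05) read -0.03 after normexp, -0.07 on slide 2 alone, -0.02 without mix culture replicate 2 and -0.16 without single culture replicate 1 (-0.16 to 0.26 over the arrays left out); SPRY2 read 0.15 without single culture replicate 1 (-0.56 to 0.15); the SPRED1 probes read 0.08 without mix culture replicate 1 and 0.04 without single culture replicate 2 (-0.19 to 0.08), and 0.09 on slide 2 alone and 0.14 without single culture replicate 1 (-0.20 to 0.14). Without replicate 1 of a culture, slide 1 is present in the other culture alone, so such values mix the slide difference with that of the cultures. The causes of the turned signs were not tested. The count of 8 probes that differed between slides was the same after quantile normalisation, after normexp and with all 6 arrays above background.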
